A study of Mus musculus with 6 samples.

Results

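The enzymes described here are those of oxidation and hydrolysis of foreign and endogenous compounds, apart from the best known ones. They were taken as all genes on the array named Cyp, Aldh, Adh, Ces, Fmo, Ephx or Akr followed by a digit, with 13 genes left out by name: Cyp3a11, Cyp3a13, Cyp3a16, Cyp3a25, Cyp2b10, Cyp4a10, Cyp4a14, Cyp51, Cyp7a1, Aldh1a1, Aldh1a2, Adh1 and Ephx2. This gave 57 genes with 75 probe sets, of 8251 genes with 10833 probe sets that carry a single gene symbol. Of the 57, 33 genes (39 probe sets) were bright enough to be tested, with an intensity above the filter level of 109.7 on at least 3 of 6 arrays, and 24 were not. A probe set is a group of short oligonucleotides on the array designed to read a transcript, or several like ones, and its value is a scaled intensity in arbitrary units.

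Phase I enzymes add or uncover a polar group on a lipophilic molecule, so that conjugating enzymes can act on it. Cytochrome P450s and flavin monooxygenases insert oxygen, alcohol and aldehyde dehydrogenases oxidize alcohols and aldehydes, aldo-keto reductases reduce carbonyls, and carboxylesterases and epoxide hydrolases cleave with water. In the small intestine they are made mainly by villus enterocytes, where they meet drugs, dietary lipids and retinoids before these reach the liver.

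RNA came from the whole small intestine of 6 mice, 1 mouse for each 1-colour Affymetrix array. The 3 Cftr control mice were +/+ and the 3 Cftr null mice -/- for the chloride and bicarbonate channel gene Cftr. All were congenic on black6, were 40 days old and had been given the liquid diet Peptamen since day 10, so that no group shows the effect of loss of Cftr on ordinary chow. Each group had 2 males and 1 female (control replicate 3 and null replicate 2), and the labels do not say which part of Cftr was altered. The brightest Cftr probe set gave 940.4 ± 120.4 (SD, n = 3) in controls and 330.0 ± 36.6 in nulls. The enterocyte genes Vil1 and Fabp2 were at 4130.5 or more on every array, while the hepatocyte gene Alb stayed at or below 103.0. Of 7 measured hepatocyte markers, 5 were at or below the filter level on all arrays, Alb among them. Cps1, though, was at 8722.6 or more on every array, and Ttr was between 94.9 and 199.9. Which cells gave the Cps1 signal was not tested. The 2%-trimmed mean was 500.3 on all 6 arrays. How precise each value is depends here on having 3 arrays per group.

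Of the 33 tested enzymes, 5 fell in Cftr null intestine and 0 rose. These were the P450s Cyp2d26 and Cyp4f13, the carboxylesterase Ces2g, the flavin monooxygenase Fmo5 and the aldehyde dehydrogenase Aldh1a7. They came from 5 different enzyme classes by the grouping used here, and their falls ran from 1.69-fold for Cyp4f13 to 3.73-fold for Cyp2d26, with Aldh1a7 at least 4.35-fold lower. Log2 changes are null minus control on the log2(intensity + 12) scale. Over all 7601 probe sets tested, 1.87% were called lower and 1.13% higher by the same test (limma, Benjamini-Hochberg adjusted p under 0.05). The 5 make up 15.2% of the tested enzymes. The median log2 change of the 33 was -0.36, against 0.03 over all tested probe sets, and 24 (72.7%) were below 0, against 45.7% of all tested probe sets. Of the 13 genes left out by name, 9 were tested and 7 of them fell, so the 5 are not a count for the whole families. The probe set names of 8 of the 33 mark possible cross-hybridization, none of them among the 5 that fell. At an unadjusted p under 0.05, 14 of the 33 (42.4%) were lower, against 8.17% of all tested probe sets, and 1, Cyp4a12b, was higher, against 9.10%.

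The same intestines also differed in enterocyte marker transcripts. All 13 measured of 15 enterocyte markers had a log2 change below 0, of which Akp3, an alkaline phosphatase, passed the test. The median log2 change of these markers was -0.65, against -0.36 for the 33 enzymes. At an unadjusted limma p under 0.05, 6 of the 13 markers were lower and 0 higher. Their summed intensity was between 138139 and 159582 in controls and between 76623 and 117455 in nulls. In whole tissue, fewer enterocytes and less RNA per enterocyte cannot be told apart, and the part of either in the enzyme values was not tested. The summed intensity of 8 smooth muscle markers was between 9534 and 14317 in controls and between 16858 and 21378 in nulls, with 7 of 8 tested above 0. Among them Actg2 rose (log2 change 1.35, limma adjusted p = 0.0151). The summed intensity of 12 proliferating crypt markers was between 7978 and 8402 in controls and between 9299 and 10557 in nulls, with 9 of 10 tested above 0. Among these Plk1 rose by its brightest probe set (log2 change 0.54, limma adjusted p = 0.0455), while its other probe sets did not pass. For 6 fibroblast markers, all above 0, the sums were between 9262 and 10285 and between 11389 and 12497. For 8 mast cell markers they were between 790.9 and 975.9 and between 4621 and 12292, with 3 of 5 tested above 0, and those 3 rose. Of 4 tested macrophage markers 2 were below 0 and 2 above, with a median log2 change of 0.09. Lyz2, which neutrophils and Paneth cells can also make, fell (log2 change -0.82, adjusted p = 0.0437), while Cd14 and Cd68 had log2 changes of 0.46 and 0.25 and did not pass. The macrophage sums, 7278 to 9759 in controls and 6257 to 6549 in nulls, follow Lyz2, the largest term in them. The part of these cells was not tested either. Sums of 7 pancreatic acinar markers overlapped between the groups, as did those of 7 hepatocyte and 5 adipocyte markers. Of the 7 hepatocyte markers, 5 were at or below the filter level on all arrays, and the sums follow Cps1, the largest term in them. These sums thus say little of the hepatocyte markers as a set. The largest term in the adipocyte sums was Lep, at 885.8 ± 161.3 in controls and 1058 ± 40.5 in nulls, which did not pass. Lipe fell, from 531.2 ± 82.3 to 293.0 ± 16.1 (log2 change -0.82, limma adjusted p = 0.0312). The adipocyte sums thus combine means that differ in opposite directions.

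**Figure D1:**
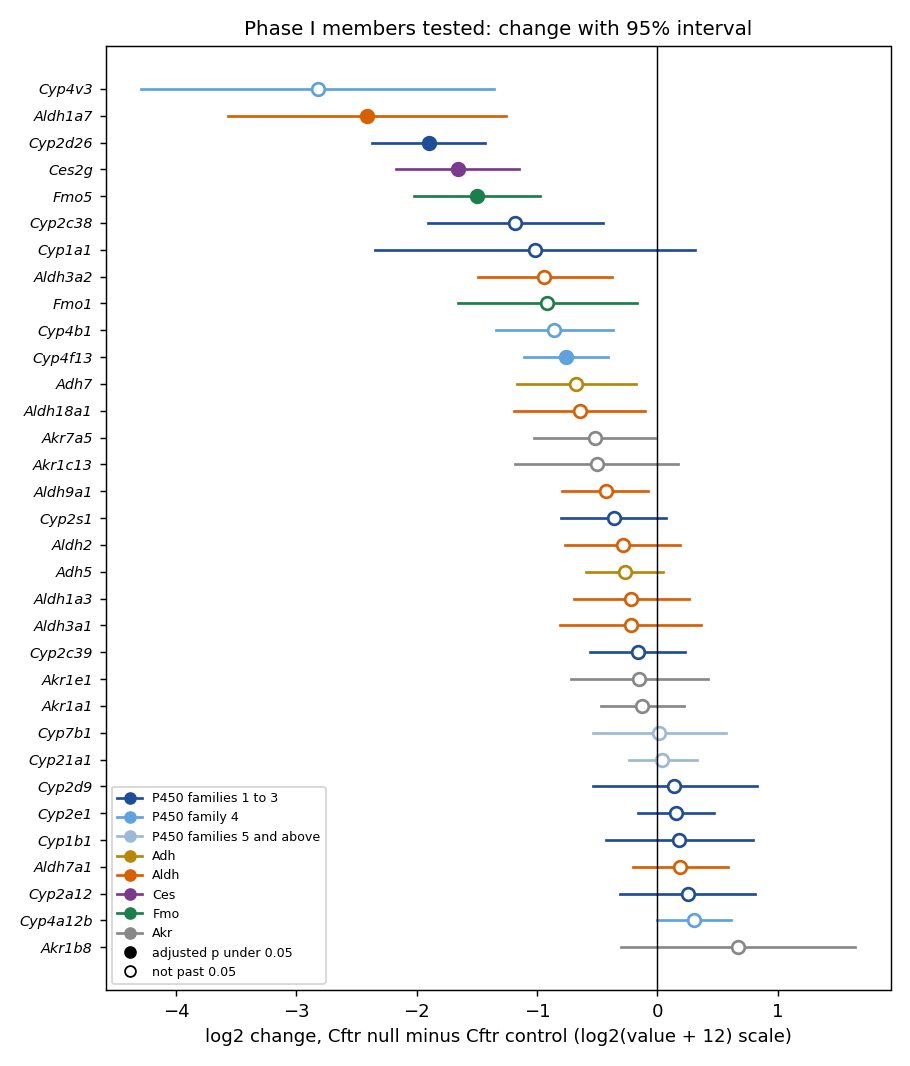
Log2 change of each of the 33 tested enzymes in Cftr null against Cftr control intestine (horizontal axis, log2(value + 12) scale; lines are 95% intervals from limma, filled points passed an adjusted p of 0.05, colours give the enzyme class). Filled points are Aldh1a7, Cyp2d26, Ces2g, Fmo5 and Cyp4f13; Cyp4v3 has the most negative value, -2.82, with a wide interval.

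The promoters of the 5 genes that fell are shown for comparison. These genes share a call in the same direction by the same test, and whether their changes are linked was not tested. Each is the 250 bases before the annotated start in RefSeq (build GRCm38.p6), written 5′ to 3′ along the gene. Capitals mark letters found by a search of both strands, read as on the printed strand. The search was for TATAAA, the TATA element, for GTTAAT, part of the motif bound by HNF1 factors, and for AGATAA, bound by zinc finger factors of the gut. It also took in AGGTCA, bound by nuclear receptors such as PXR, CAR and PPAR alpha, as well as GCGTG, the core bound by the aryl hydrocarbon receptor, and TGACNNNGC, the core of the antioxidant response element. None of these motifs contains another, though AGGTCA read on the other strand can overlap the start of TGACNNNGC.
Cyp2d26 promoter, chr15:82794246-82794495, minus strand: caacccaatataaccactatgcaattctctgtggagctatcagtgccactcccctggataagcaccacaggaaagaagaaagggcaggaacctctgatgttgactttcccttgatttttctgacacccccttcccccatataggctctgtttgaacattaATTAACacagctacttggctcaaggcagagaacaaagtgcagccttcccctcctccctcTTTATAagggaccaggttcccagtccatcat
Cyp4f13 promoter, chr17:32947362-32947611, minus strand: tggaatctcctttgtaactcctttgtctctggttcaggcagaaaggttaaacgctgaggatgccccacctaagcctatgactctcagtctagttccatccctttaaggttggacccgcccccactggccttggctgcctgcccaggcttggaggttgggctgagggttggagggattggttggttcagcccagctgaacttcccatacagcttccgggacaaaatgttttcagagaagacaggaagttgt
Ces2g promoter, chr8:104961468-104961717, plus strand: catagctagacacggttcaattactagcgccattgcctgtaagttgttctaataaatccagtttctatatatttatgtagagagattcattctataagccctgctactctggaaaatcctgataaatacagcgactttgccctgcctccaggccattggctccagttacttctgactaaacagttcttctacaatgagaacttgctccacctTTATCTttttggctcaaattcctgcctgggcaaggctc
Fmo5 promoter, chr3:97628769-97629018, plus strand: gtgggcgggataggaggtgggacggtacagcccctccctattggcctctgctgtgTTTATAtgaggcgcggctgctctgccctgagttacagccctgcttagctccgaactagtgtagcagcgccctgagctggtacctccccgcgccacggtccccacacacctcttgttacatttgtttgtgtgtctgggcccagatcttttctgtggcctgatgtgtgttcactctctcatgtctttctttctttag
Aldh1a7 promoter, chr19:20727557-20727806, minus strand: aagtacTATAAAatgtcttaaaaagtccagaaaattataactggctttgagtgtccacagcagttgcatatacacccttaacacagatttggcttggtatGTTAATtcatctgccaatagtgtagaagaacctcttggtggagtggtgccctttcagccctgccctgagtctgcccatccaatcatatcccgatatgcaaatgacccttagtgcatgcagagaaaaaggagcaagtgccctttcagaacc

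No motif searched was in all 5 windows, and the window of Cyp4f13 held none. TATAAA was in those of Cyp2d26, Fmo5 and Aldh1a7, GTTAAT in those of Cyp2d26 and Aldh1a7, and AGATAA in that of Ces2g alone. Only in Cyp2d26 did a match to TATAAA lie near the start, beginning 31 bases before it. There, as in Fmo5, the match was on the other strand and reads TTTATA along the gene. In Aldh1a7 it was on the printed strand. None of the 5 held the letters AGGTCA in this window, nor those of GCGTG or of TGACNNNGC, which says only that they are not in these 250 bases. Of the 57 enzymes, 45 had a promoter entry. TATAAA was in 44.4% of these 45, against 14.3% of all 27025 genes in the table. AGATAA was in 22.2% against 11.4%, AGGTCA in 24.4% against 15.8%, GTTAAT in 6.7% against 7.5%, GCGTG in 15.6% against 30.9%, and TGACNNNGC in 4.4% against 11.5%. A match is a string of letters and not a shown binding site.

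Among the P450s of families 1 to 3, which handle most drugs and many dietary compounds, 1 of 9 tested genes fell. Cyp2d26, of the CYP2D branch of drug-oxidizing P450s, had intensities of 5909.4, 6014.6 and 5028.6 in the controls and 1465.0, 2016.8 and 1143.4 in the nulls, each listed in order of replicate. Every null lay far below every control. Its means were 5651 ± 541.5 (SD, n = 3) and 1542 ± 441.7, a log2 change of -1.90 (SE 0.20, adjusted p = 0.00450), or 3.73-fold lower. The call held in all 18 alternative analyses, the 6 that leave out a mouse included.

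The neighbouring Cyp2d9 gave another picture. Its single-symbol probe set was dim, at 146.0 ± 45.6 in controls and 160.1 ± 38.3 in nulls, with a log2 change of 0.14 (95% interval -0.54 to 0.83). Cyp2d10, which lies beside it in the gene order, was below the filter on all arrays, at most 34.5. A separate probe set shared by Cyp2d12 and Cyp2d9, outside the set because it names 2 genes, read 2054.4, 2512.5 and 1767.7 in controls and 479.4, 871.1 and 347.4 in nulls (log2 change -1.97, adjusted p = 0.0177).

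Cyp2c38 and Cyp2c39 are adjacent genes of the CYP2C branch, whose products oxidize arachidonic acid and retinoids. Cyp2c38 read 559.6, 790.6 and 712.4 in controls and 272.7, 491.8 and 188.0 in nulls. The groups did not overlap, but the null values were spread widely. Its log2 change of -1.18 (95% interval -1.91 to -0.45) did not pass (adjusted p = 0.102). Without null replicate 2 it did, at -1.54 (adjusted p = 0.0202), but not without any of the other 5 mice (adjusted p from 0.173 to 0.256). Cyp2c39 read 670.0, 862.0 and 702.6 in controls and 581.0, 605.5 and 820.5 in nulls, and these ranges overlap. Its log2 change was -0.16 (95% interval -0.56 to 0.23). The difference between these 2 genes was not tested, and the probe set for Cyp2c38 has a name that marks possible cross-hybridization. Cyp2c29, the next gene in the cluster, was above the filter in control replicate 2 alone, at 234.0, and between 19.1 and 88.9 in the other 5 mice.

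Cyp1a1, the aryl hydrocarbon hydroxylase induced through the aryl hydrocarbon receptor, varied as much within as between groups. It read 387.7, 630.4 and 239.2 in controls and 496.2, 109.3 and 113.2 in nulls. Null replicate 1 thus lay inside the control range and the other nulls below it (log2 change -1.02, 95% interval -2.35 to 0.31, adjusted p = 0.415). Cyp2s1, a P450 of epithelia outside the liver, was at 726.0 ± 59.0 in controls and 572.2 ± 144.8 in nulls (log2 change -0.36, adjusted p = 0.373). Cyp2e1, the ethanol-oxidizing P450, was between 252.6 and 301.5 in controls and between 306.8 and 334.2 in nulls. These ranges do not overlap, yet the log2 change was only 0.15 (adjusted p = 0.614). Cyp1b1 and Cyp2a12 had log2 changes of 0.18 and 0.25 with intervals that span 0. The liver P450s Cyp1a2, Cyp2c70 and Cyp2j5 were among the members never above the filter.

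P450s of family 4 hydroxylate fatty acids and eicosanoids at or near the end of the chain. Of the 4 tested, Cyp4f13 fell and 3 did not pass. Cyp4f13 read 881.9, 887.2 and 788.7 in controls and 577.3, 520.6 and 410.3 in nulls. The groups are clearly separate and the change is modest, 1.69-fold lower (log2 change -0.76, SE 0.15, adjusted p = 0.0421). The call was lost in each of the 6 analyses without a mouse, with log2 changes from -0.86 to -0.62 and adjusted p from 0.0760 to 0.146. A dimmer second probe set for the gene read 128.9 ± 63.2 and 84.7 ± 69.5, with overlapping groups (log2 change -0.66, adjusted p = 0.601).

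Cyp4v3, a fatty acid hydroxylase whose human counterpart is mutated in a crystalline retinal dystrophy, had the most negative log2 change of the 33 without passing the test. Controls were tightly grouped at 14335.7, 13349.0 and 14476.3. Nulls were at 691.3, 5743.9 and 1930.3, all below the controls but widely spread among themselves. The log2 change was -2.82 (SE 0.63, adjusted p = 0.0610). Without the female null replicate 2 it passed, at -3.59 (adjusted p = 0.00656), as it did in males only (-3.57, adjusted p = 0.0181) and with sex as a covariate (adjusted p = 0.0412). With all 6 mice kept, it also passed once probe sets marked for cross-hybridization were left out (-2.82, limma adjusted p = 0.0487). Without null replicate 1 the change shrank to -2.07 (adjusted p = 0.0889), and leaving out any of the other 4 mice gave an adjusted p from 0.117 to 0.170. The fit with sex as a covariate that gained Cyp4v3 lost Aldh1a7 (adjusted p = 0.0510) and Cyp4f13 (0.0610), and the males-only fit lost Cyp4f13 (0.141).

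Cyp4b1, which oxidizes fatty acids and some protoxins, read 1778.8, 2883.4 and 1761.2 in controls and 1037.6, 1343.6 and 1077.1 in nulls. The groups do not overlap, but the log2 change of -0.86 did not pass (adjusted p = 0.0816). Cyp4a12b stood apart from these 3, with a log2 change of 0.30 (95% interval 0.00 to 0.61, adjusted p = 0.286). Its nulls, 528.6, 455.9 and 456.4, were all above its controls, 402.9, 349.0 and 407.7. It is a near neighbour of Cyp4b1 in the gene order.

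P450s of families 5 and above act on steroids, bile acids, vitamin D and retinoic acid. Only 2 of their 8 members were bright enough to be tested. Cyp21a1, the steroid hydroxylase of the adrenal, was at 906.8 ± 59.2 in controls and 934.8 ± 92.4 in nulls (log2 change 0.04, 95% interval -0.24 to 0.33). Cyp7b1, an oxysterol hydroxylase, was at 116.3 ± 15.0 and 117.8 ± 20.0 (log2 change 0.01, 95% interval -0.54 to 0.57). The names of both probe sets mark possible cross-hybridization. A second Cyp7b1 probe set without such a mark was between 50.8 and 82.6, under the filter level on all arrays. Cyp27b1, which makes the active form of vitamin D, was not tested. It read 87.8, 104.5 and 136.4 in controls and 37.3, 52.1 and 81.2 in nulls, mostly under the filter level of 109.7. Cyp24a1, which breaks that hormone down, and Cyp26a1, which clears retinoic acid, never passed the filter level.

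**Figure D2:**
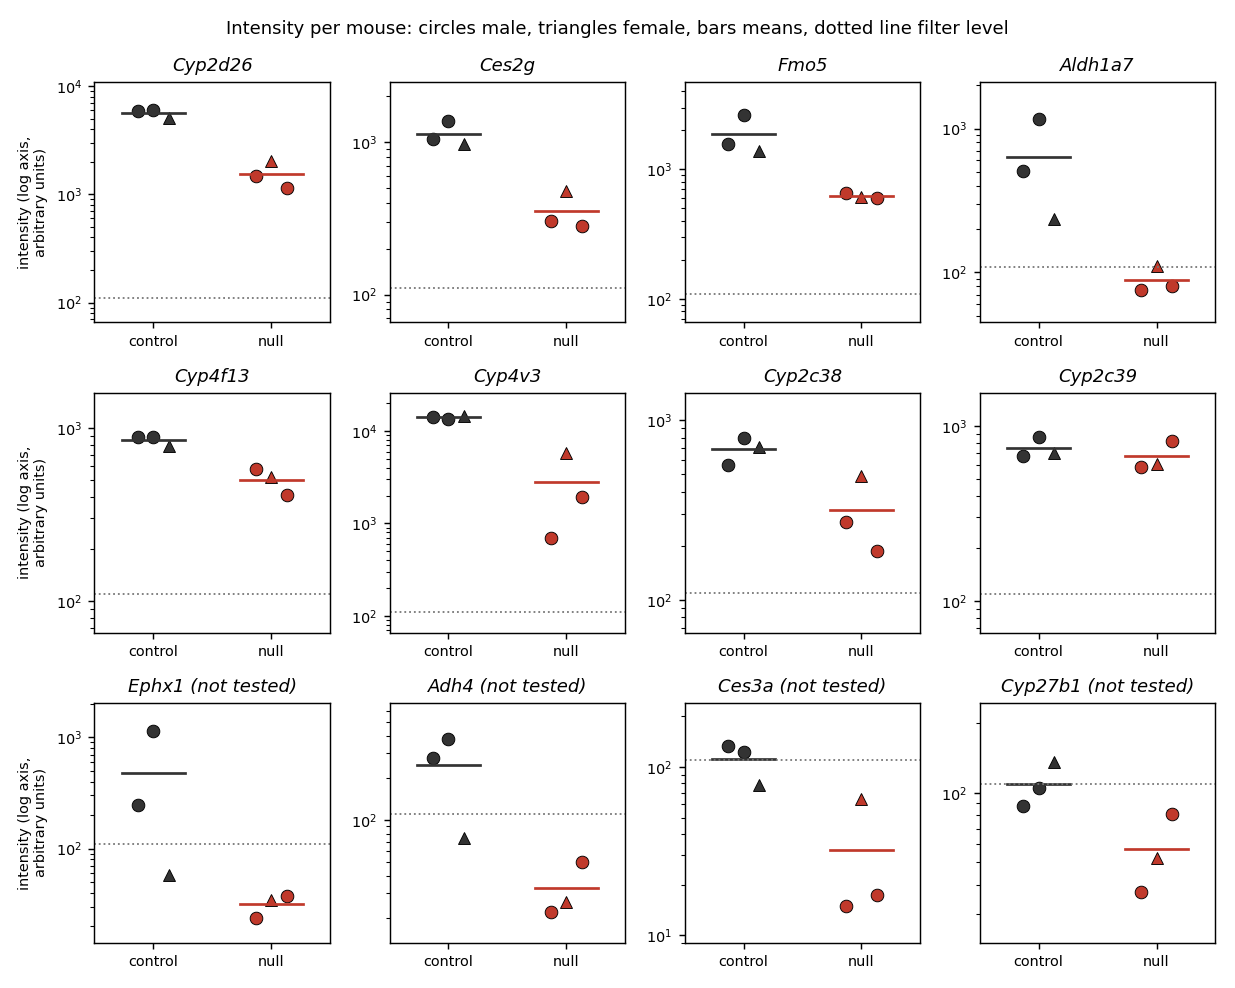
Intensity of 12 enzymes in each mouse on a log axis, controls in black and nulls in red (circles male, triangles female, bars group means, dotted line the filter level of 109.7). Cyp4v3 shows tight controls and spread nulls, Cyp2c39 overlapping groups, and the bottom row 4 genes too dim in most mice to be tested.

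Flavin monooxygenases oxidize soft nucleophiles, and Fmo5 acts as a Baeyer-Villiger enzyme. Fmo5 fell and Fmo1 did not pass. Fmo5 read 1573.1, 2613.8 and 1395.5 in controls and 660.9, 611.0 and 603.0 in nulls. The nulls agree closely with each other, while control replicate 2 is well above the other controls. The fall was 2.83-fold (log2 change -1.50, SE 0.22, adjusted p = 0.0151). The call was lost when null replicate 1 was left out (adjusted p = 0.0713), and also when null replicate 3 was (0.0577). A second Fmo5 probe set, too dim to test, was at 103.8 ± 33.9 in controls and 40.0 ± 10.4 in nulls. Fmo1 read 142.3, 243.2 and 180.8 in controls and 92.5, 135.2 and 61.4 in nulls, groups that just do not overlap (log2 change -0.92, adjusted p = 0.194).

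Carboxylesterases cleave ester and amide drugs as well as lipid esters. Ces2g, of the carboxylesterase family that predominates in intestine, was the 1 tested of 5, and it fell. Its controls were 1043.7, 1363.5 and 969.1 and its nulls 304.3, 473.9 and 282.8. The groups are well apart. The fall was 3.16-fold (log2 change -1.66, SE 0.22, adjusted p = 0.0108), and the call was lost without null replicate 1 (adjusted p = 0.0600). Ces3a, which lies close to Ces2g in the gene order, was not tested, at 133.5, 122.9 and 78.2 in controls and 15.0, 64.4 and 17.4 in nulls. Ces1d was under the filter level throughout, at 65.0, 59.6 and 34.8 against 4.7, 8.1 and 3.3, and Ces1g rose above it in control replicate 2 alone, at 202.3. These 3 dim genes have lower null than control means, with no fold given. Ces1c stayed at or below 28.2.

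Ephx1, the microsomal epoxide hydrolase, was the 1 epoxide hydrolase of the set and was not tested. It read 248.4, 1135.1 and 57.5 in controls and 23.6, 34.2 and 37.6 in nulls. The control values differ among themselves far more than the nulls do, and control replicate 3 was itself under the filter level.

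Alcohol dehydrogenases oxidize ethanol, retinol and other alcohols, and Adh5 clears formaldehyde bound to glutathione. Neither tested member passed. Adh7 read 764.3, 977.2 and 730.1 in controls and 684.1, 399.4 and 476.9 in nulls, without overlap (log2 change -0.68, 95% interval -1.17 to -0.18, adjusted p = 0.155). Adh5 was at 1686 ± 222.2 and 1394 ± 123.6 by its brighter probe set (log2 change -0.27, adjusted p = 0.373) and at 1571 ± 43.9 and 1409 ± 10.5 by the other (log2 change -0.16, adjusted p = 0.476). Adh4, not tested, read 279.6, 382.9 and 74.6 in controls and 22.0, 25.8 and 49.8 in nulls. A second Adh4 probe set gave 296.2, 309.9 and 88.8 against 60.7, 23.3 and 33.9, so both show a low female control. These 3 genes and Adh1 form 1 cluster in the gene order.

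Aldehyde dehydrogenases turn aldehydes into acids. All 8 members were tested, 1 fell and 7 had a log2 change below 0. Aldh1a7, a close relative and direct neighbour of Aldh1a1, read 503.2, 1162.9 and 233.2 in controls and 75.0, 110.0 and 80.5 in nulls. The controls span a wide range, with the female lowest, and the nulls lie close to or under the filter level of 109.7. It was at least 4.35-fold lower (log2 change -2.41, SE 0.50, adjusted p = 0.0470). This call sat at the edge of the threshold: of 6 analyses without a mouse it held in 1, the one without control replicate 3, and the log2 change in the 6 ran from -2.97 to -1.84. Since the nulls are at the bottom of the range, the bound counts them at the filter level.

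Aldh3a2, the fatty aldehyde dehydrogenase, read 1929.3, 2388.3 and 1168.7 in controls and 922.5, 915.5 and 894.9 in nulls. The nulls were nearly equal and all below the controls, with a log2 change of -0.94 (adjusted p = 0.0900). Its second probe set gave nearly the same, -0.89 (adjusted p = 0.0872). Without control replicate 3 the first passed, at -1.23 (adjusted p = 0.0127), and leaving out any of the other 5 mice gave an adjusted p from 0.151 to 0.251. Its neighbour Aldh3a1 had a log2 change of -0.22 (95% interval -0.81 to 0.36).

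The mitochondrial acetaldehyde enzyme Aldh2 had 3 tested probe sets, with log2 changes of -0.29, -0.22 and -0.28 and intervals that span 0. Aldh9a1, of betaine and carnitine synthesis, was at 3342 ± 368.4 in controls and 2484 ± 404.5 in nulls, without overlap (log2 change -0.43, adjusted p = 0.202). Aldh18a1, of proline synthesis, was at 525.8 ± 160.4 and 321.8 ± 34.8 (log2 change -0.64, adjusted p = 0.217). Aldh1a3, a retinaldehyde dehydrogenase, had a log2 change of -0.22. Aldh7a1, of lysine breakdown, was the 1 member of the class above 0, at 0.19 and 0.22 by its 2 tested probe sets. None of these 5 passed.

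Aldo-keto reductases reduce aldehydes and ketones to alcohols. None of the 5 tested passed. Akr1a1, the general aldehyde reductase, was at 10923 ± 2055 in controls and 9901 ± 513.4 in nulls (log2 change -0.13, 95% interval -0.47 to 0.22). Akr7a5, which reduces toxic dialdehydes, was at 2832 ± 139.0 and 2034 ± 614.9, without overlap (log2 change -0.52, adjusted p = 0.271). Akr1c13 read 3564.4, 7645.8 and 3759.5 in controls and 3354.8, 2725.3 and 3946.7 in nulls, where control replicate 2 alone sets the control mean apart (log2 change -0.50, adjusted p = 0.431; -0.15 without that mouse). Akr1b8, an aldose reductase relative, had the highest log2 change of the 33, 0.67 (95% interval -0.30 to 1.64). Its values, 705.8, 1114.8 and 375.3 against 1521.6, 665.5 and 1208.1, overlap. Akr1e1 was at 269.2 ± 88.1 and 233.1 ± 22.5.

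All 3 nulls were below all 3 controls in 13 of the 33 enzymes, 39.4%, against 10.8% of all tested probe sets. All 3 nulls were above in 2, Cyp4a12b and Cyp2e1, 6.06% against 13.1%. The 13 included 3 of 4 family 4 P450s, both flavin monooxygenases, 3 of 8 aldehyde dehydrogenases and 2 of 9 P450s of families 1 to 3, but neither P450 of families 5 and above. Of the 13 tested enterocyte markers, all nulls were below all controls in 5 and above in 0. Such a separation was thus not particular to the enzymes.

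**Figure D3:**
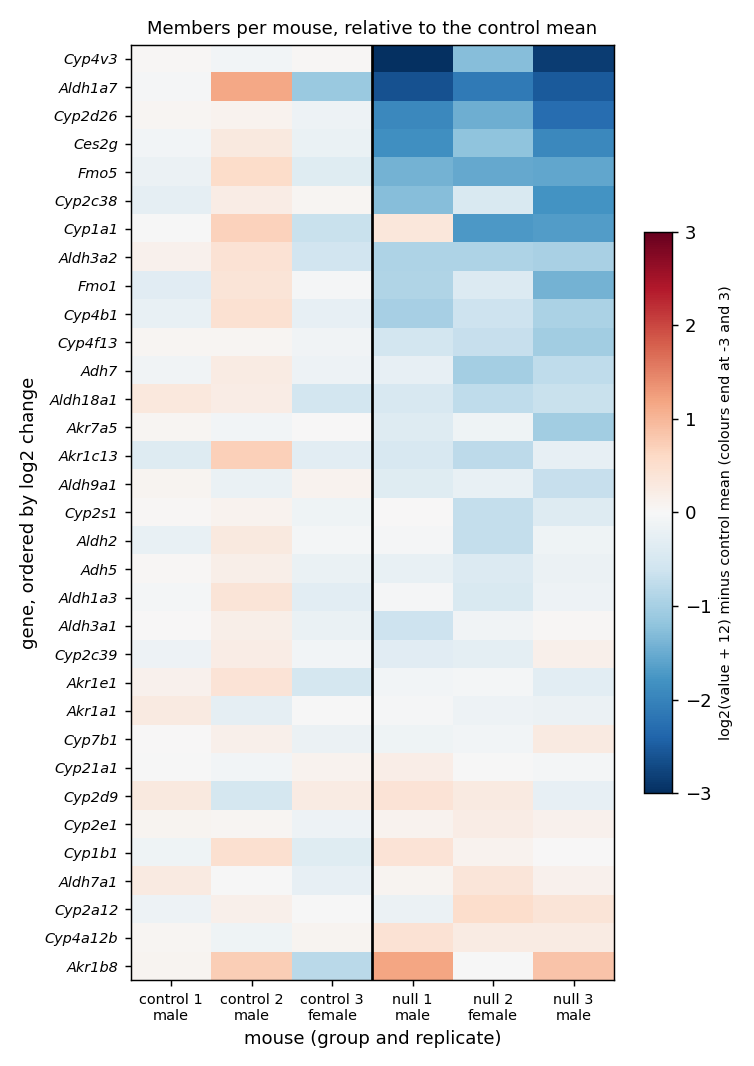
Each of the 33 tested enzymes (rows, ordered by log2 change) in each mouse (columns), as log2(value + 12) minus the mean of the controls; blue is below and red above that mean, and colours end at -3 and 3. The column of control 2 is mostly red, and the upper rows are blue in all 3 nulls, palest for several genes in null 2.

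Single mice stood apart in these enzymes. Control replicate 2 was the highest control in 23 of 33 enzymes (69.7%), against 38.9% over all tested probe sets. Control replicate 3, the female, was the lowest control in 20 (60.6% against 32.2%). The median distance of the 33 from the control mean was 0.02, 0.21 and -0.16 in the controls and -0.25, -0.42 and -0.31 in the nulls, on the log2 scale. The median of every null mouse thus lay below that of every control. Over all tested probe sets these medians stayed between 0.00 and 0.04. Without control replicate 2, 3 enzymes fell, as they did without control replicate 1. Without null replicate 1, 1 fell, and without null replicate 3, 2 fell. The title code of control replicate 2 begins unlike those of the other mice. The codes of control replicate 1 and null replicate 3 share their beginning, and those of control replicate 3, null replicate 1 and null replicate 2 share a middle part. The sources used here do not explain the codes.

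The sexes were compared within the same contrast. In each of the 5 enzymes that fell, the difference was larger in the males than between the 1 null and 1 control female. For Cyp2d26 it was -2.19 in males and -1.31 in females on the log2 scale. For Aldh1a7 it was -3.12 and -1.01, and for Ces2g -1.98 and -1.01. Cyp4v3 differed by -3.57 and -1.33. In limma's test of the interaction of genotype and sex, 0 of 33 enzymes passed. At an unadjusted p under 0.05 there were 5, Aldh1a7, Aldh3a2, Ces2g, Cyp2d26 and Cyp4v3. Over all tested probe sets 3.10% had such a p, and 0% passed. The interaction was above 0 in 72.7% of the 33 and in 51.4% of all tested probe sets. Since 0 of all 7601 probe sets passed, the count of 0 says nothing particular of the enzymes. With 1 female in each group, sex and the individual mouse cannot be told apart.

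**Figure D4:**
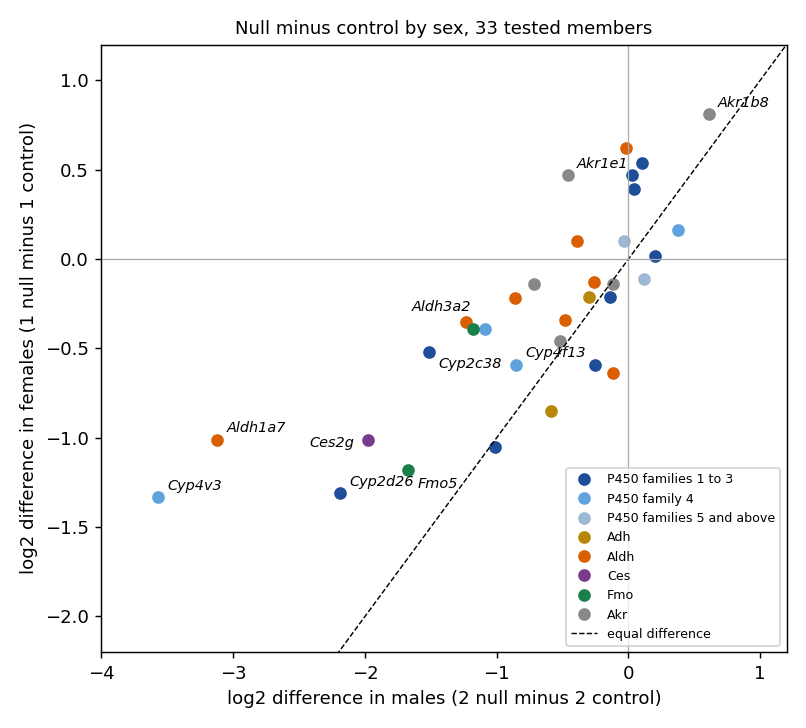
Null minus control on the log2(value + 12) scale for the 33 tested enzymes, in males (horizontal, 2 mice per group) and females (vertical, 1 mouse per group); the dashed line marks equal differences and colours give the class. Cyp4v3, Aldh1a7, Cyp2d26 and Ces2g lie above the line, with a smaller difference in females, and no enzyme passed the test of this difference.

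Genes that work beside these enzymes were read from 3 lists, written with earlier results of these data known. Over all tested probe sets, 1.87% were called lower and 45.7% had a log2 change below 0. Of 6 measured electron partners of P450s, 3 fell and 0 rose, with a median log2 change of -0.61 and 5 below 0. Cyb5r3, the reductase of cytochrome b5, went from 5097 ± 982.9 to 2283 ± 270.2 (2.21-fold lower, adjusted p = 0.0145). Cyb5a, cytochrome b5 itself, went from 5340 ± 313.6 to 3018 ± 421.8 (1.78-fold lower, adjusted p = 0.0185). Pgrmc1, a haem protein that binds P450s, was 1.82-fold lower (adjusted p = 0.0456).

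Of 16 tested phase I enzymes of other families, 6 fell and 0 rose, with a median log2 change of -0.54. The retinol dehydrogenase Rdh7 was 7.85-fold lower and the deacetylase Aadac, at 2835 ± 980.8 and 620.3 ± 175.6, 4.44-fold lower (adjusted p = 0.0128). Maoa, monoamine oxidase, went from 8649 ± 1296 to 4062 ± 736.2 (2.13-fold lower, adjusted p = 0.0151). Hsd17b4, of peroxisomal oxidation, was 2.61-fold, Hsd17b2, a steroid dehydrogenase, 1.92-fold and Dhrs4, a carbonyl reductase, 1.69-fold lower. The antioxidant response gene Nqo1 did not pass, at 363.8 ± 222.4 and 240.2 ± 26.2.

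Of 15 tested regulators, 1 fell, Ppara, by 2.41-fold (adjusted p = 0.0151), and the median log2 change was -0.06. The xenobiotic receptor PXR, Nr1i2, read 408.9, 710.4 and 503.5 in controls and 302.7, 278.5 and 384.4 in nulls, without overlap (log2 change -0.70, adjusted p = 0.151). For CAR, Nr1i3, the brightest of 3 probe sets did not pass (log2 change -0.76, adjusted p = 0.0629), a second did (-0.86, adjusted p = 0.0280) and the third did not (-0.39, adjusted p = 0.416). The aryl hydrocarbon receptor Ahr was at 245.6 ± 10.4 and 236.1 ± 20.0 and Nfe2l2, the regulator of the antioxidant response, at 2780 ± 227.5 and 2283 ± 454.5 (adjusted p = 0.403). Hnf4a, a hepatic and intestinal nuclear receptor, varied widely, at 880.2 ± 521.6 and 1148 ± 642.8.

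Of the 24 enzymes that were not tested, 16 were at or below the filter level on all 6 arrays, at most 85.4. They include Cyp1a2, Cyp2b9, Cyp2b13, Cyp2b19, Cyp2d10, Cyp2j5, Cyp2j6, Cyp11a1, Cyp17a1, Akr1c6, Akr1c21, and those named above. A further 5 were above it on 1 array, Ces1g, Cyp27b1, Cyp2c29, Cyp2f2 and Cyp8b1. Adh4, Ces3a and Ephx1 were above it on 2 arrays, each time the male controls. A dim value does not show that the transcript is absent.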

How the data were processed

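Total RNA was prepared with TRIzol, per the labels. The authors deposited 1 linear intensity for each probe set, and the 6 columns have equal trimmed means. The scanner software was not stated in the sources used here. Of 12488 probe sets, 66 controls (AFFX) were set aside. Genes were named from probe sets with 1 symbol in the platform annotation. All 57 members matched the RefSeq gene table, with 0 symbols changed.

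Values were turned into log2(value + 12), where 12 is the 10th percentile. Folds on this scale understate changes of dim genes. Probe sets above 109.7 (the 40th percentile) in at least 3 of 6 arrays were tested, 7601 in all, with limma 3.58.1 in R 4.3.3 (lmFit, eBayes with a variance trend), null against control, two-sided, adjusted over all of them (Benjamini-Hochberg, 0.05). A second fit held sex and its interaction with genotype. Each gene is given by its brightest tested probe set. Where the lower group's mean log2 lay at or under the filter level, the fold is a bound against that level. No pairing or batch is stated in the labels; p-values measure the spread between single mice. In 10 simulated data sets of 7601 probe sets, the test found 62.6% of the 2-fold changes and 92.2% of the 4-fold ones, with 4.1% false calls. The simulated noise was independent between probe sets and each change was equal in all nulls, so these rates need not hold for the real arrays.

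Members, lists and tests were chosen with earlier results of these data known. Named are members that passed, up to 3 of the brightest of each class that did not, and members with several tested probe sets. Genes of the 3 lists read beside them are named where they passed, with the brightest to make 2. The genes left out by name that fell are counted, without their values. Other named genes, such as Cyp1a1, Cyp2e1, Akr1b8, Nr1i2, Nr1i3, Ahr, Hnf4a, Nqo1, markers such as Actg2, Plk1, Cps1, Lep and Lipe, and the untested genes with values, were chosen after their values were seen. Gene order and promoters come from RefSeq (GRCm38.p6). Neighbours have at most 10 coding genes between them. Possible cross-hybridization was read from the letter before the suffix of a probe set's name. Motifs searched in promoters, and the bound rule in its present form, were also chosen after values were seen.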

Additional observations from a re-analysis of the deposited data

How the results depend on the processing

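The count of 5 enzymes lower became 3 without a variance trend, and ranged from 1 to 6 when a mouse was left out. In the other alternatives it was between 4 and 6: quantile or median scaling, pseudocounts of 3 and 48, no filter or one at 288.7, sex as a covariate, males only, robust variance, averaging the probe sets of a gene, and no probe sets marked for cross-hybridization. Sex as a covariate exchanged calls, with Aldh1a7 and Cyp4f13 lost and Cyp4v3 gained, and males only lost Cyp4f13 and gained Cyp4v3 and Aldh3a2. Leaving out probe sets marked for cross-hybridization gained Cyp4v3 and lost none. The count higher was 0 in all 18 alternatives. The interaction count was 0 in all 8 run for it, which says nothing of stability, as no probe set passed in the main analysis. Of 18 alternatives, Cyp2d26 passed in 18, Ces2g in 17, Fmo5 in 16 and Cyp4f13 in 7. Aldh1a7 passed in 7 of the 17 that tested it, since the filter at 288.7 left it out. Without the filter, Ces1d, under the filter level in both groups, was called lower. For 3 enzymes near 0 the sign turned: Cyp7b1 at -0.03 in males only and between -0.11 and 0.09 with a mouse left out, Cyp21a1 between -0.04 and 0.09, and Akr1a1 between -0.26 and 0.01. The cause was not tested. Signal close to background limits the 24 untested enzymes.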

Other observations

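Probe sets that name several genes of these families lie outside the 57 members. Of 7 such probe sets, 4 were tested, and all 4 were lower in null intestine. The one shared by Cyp2c40, Cyp2c67, Cyp2c68 and Cyp2c69 read 1553.7, 1769.7 and 1131.2 in controls and 453.7, 475.0 and 402.1 in nulls, 3.24-fold lower (limma, adjusted p = 0.00440). The one shared by Cyp4b1 and its pseudogene Cyp4b1-ps2 was 1.72-fold lower (adjusted p = 0.0395), with a log2 change of -0.79, close to the -0.86 of the Cyp4b1 probe set that did not pass. The one shared by Cyp2d12 and Cyp2d9 was 3.90-fold lower, whereas the dim probe set of Cyp2d9 alone had a log2 change of 0.14. The fourth, shared by Cyp3a16 and Cyp3a11, was 16.8-fold lower (adjusted p = 0.0260). Which of the genes named by a probe set gave its signal cannot be told from these values.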
